A study of Mus musculus with 98 samples.

Results

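The expression of 10 genes of the Notch pathway was followed in the endothelium, the mural cells and the thymic epithelial cells (TEC) of the mouse thymus. They are the ligands Dll4, Dll1, Jag1 and Jag2, the receptors Notch1, Notch3 and Notch4, and the target genes Hey1, Heyl and Hes1. The genes were chosen by name, and all 10 are among the 18452 gene names that the 3 count tables of the study share. The study charted the stroma of the thymus, above all its nonepithelial part (NETS), from early organogenesis to young adulthood. Its wild-type (WT) mice were C57BL/6.

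In the age series, single NETS cells (Ter119-CD45-EpCAM-) of WT mice were captured in 2 libraries for each of E16.5, P0 and 4 weeks (W4) and in a single library for E12.5 and for E13.5. In the newborn series, all stroma (Ter119-CD45-) was captured at P0 from 3 mice labelled Tbx1+/-Crkl+/- and 3 WT littermates, after fixation with RNAprotect. The mutants carry a lacZ allele of Tbx1 and a germline null allele of Crkl, both heterozygous, as a model that removes 1 copy of only 2 genes of a human deletion syndrome. In bulk, RNA of sorted cells of WT mice was read from 6 libraries for each population and age: CD31+ cells (endothelium), Ly51+gp38- cells (mural cells), the fibroblast populations gp38+CD26- and gp38+CD26+, cTEC and mTEC at P0 and W4, and mTEChi and mTEClo at W4. In each group the labels of 3 libraries hold the letters TXCK after the library number and those of 3 hold DFCK, a code whose meaning is not given in the sources used here. Digests of adult mice were depleted of CD45+ cells with beads before the sort, which sets the W4 samples apart from the younger ones in handling as well as in age. The labels do not say that libraries of a group came from separate animals, so p-values measure the spread between these libraries, which may be in part technical.

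On the mouse genome (mm10) the ligands lie at chr2:119325784-119335962 (Dll4), chr17:15367354-15376872 (Dll1), chr2:137081456-137116644 (Jag1) and chr12:112907819-112929776 (Jag2). The receptors lie at chr2:26457903-26516663 (Notch1), chr17:32120820-32166852 (Notch3) and chr17:34564268-34588503 (Notch4), and the targets at chr3:8663359-8667256 (Hey1), chr4:123233556-123249875 (Heyl) and chr16:30064384-30067796 (Hes1).

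Notch receptors sit in the membrane of the receiving cell and are cut when a Delta-like or Jagged ligand on a neighbouring cell pulls on them. The released intracellular part enters the nucleus, joins the DNA-binding protein RBPJ and switches on target genes, among them the repressors of the Hes and Hey families. In the thymus, Dll4 on cortical epithelium is the ligand that commits incoming progenitors to the T cell lineage through Notch1. In blood vessels, Dll4 and Notch1 take part in arterial fate and sprouting, and Jag1 on endothelium acts on Notch3 of mural cells.

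Windows at transcript starts of the 4 ligands are shown here. They were chosen because each ligand has a window with a short GC-rich motif that is not in the windows found for the receptors. RefSeq windows from 250 bases before to 50 bases after the start of a transcript (GRCm38.p6) were found for 7 of the 10 members, in 8 windows, and not for Hey1, Heyl and Hes1. Each of the 4 ligands has a window with the letters CACGCG or, on the other strand, CGCGTG. These letters form a class C site, of the kind that HES and HEY repressors are known to bind. In Dll4, Dll1 and Jag1 they lie before the start of the transcript. In Jag2 they lie 18 bases after it, and the whole window lies inside the span of the gene given above. The letters in Jag2 are therefore not shown to be part of a promoter, and binding was not tested for any of the 4. The windows are written 5′ to 3′ along the strand of the gene, with the motif in capitals. They are those of Dll4 on the plus strand (chr2:119325534-119325833) and of Dll1 (chr17:15376883-15377182), Jag1 (chr2:137116471-137116770) and Jag2 (chr12:112929446-112929745), all 3 on the minus strand.
Dll4: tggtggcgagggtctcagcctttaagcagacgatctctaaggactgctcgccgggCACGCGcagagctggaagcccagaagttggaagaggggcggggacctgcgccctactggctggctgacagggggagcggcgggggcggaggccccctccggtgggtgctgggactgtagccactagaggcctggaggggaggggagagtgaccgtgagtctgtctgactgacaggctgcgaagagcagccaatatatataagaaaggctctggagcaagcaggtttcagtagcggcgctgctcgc
Dll1: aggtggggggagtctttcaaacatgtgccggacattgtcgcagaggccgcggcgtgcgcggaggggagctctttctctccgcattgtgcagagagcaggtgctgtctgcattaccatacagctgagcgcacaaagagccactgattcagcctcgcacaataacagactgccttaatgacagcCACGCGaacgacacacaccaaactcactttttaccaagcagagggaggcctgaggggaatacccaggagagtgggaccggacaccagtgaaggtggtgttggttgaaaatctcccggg
Jag1: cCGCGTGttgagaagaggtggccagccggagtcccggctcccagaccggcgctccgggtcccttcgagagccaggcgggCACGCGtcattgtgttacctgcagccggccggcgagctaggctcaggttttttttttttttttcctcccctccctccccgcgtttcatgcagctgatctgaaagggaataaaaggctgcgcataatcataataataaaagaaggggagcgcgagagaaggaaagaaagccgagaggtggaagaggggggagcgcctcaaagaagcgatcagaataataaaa
Jag2: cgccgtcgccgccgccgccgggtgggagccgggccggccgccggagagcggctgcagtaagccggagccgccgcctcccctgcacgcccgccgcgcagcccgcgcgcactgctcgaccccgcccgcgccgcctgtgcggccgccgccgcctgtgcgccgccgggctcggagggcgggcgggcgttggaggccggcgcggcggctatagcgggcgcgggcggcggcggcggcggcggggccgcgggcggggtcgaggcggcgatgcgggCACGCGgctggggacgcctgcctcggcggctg
The motif occurs once in the windows of Dll4, Dll1 and Jag2 and at 2 places in that of Jag1, and it is not in the second window of Dll1 or in those of Notch1, Notch3 and Notch4. Over all genes, 3045 of 32851 windows held it on either strand (9.27%). The 4 windows with it were 55.7 to 86% GC, above the median of 52.7% over all windows, and of all windows in that range of GC 19.1% held it. The letters were searched after the sequences had been seen, and they cannot overlap the E-box CACGTG, which was in 0 of the 8 windows of members and in 7.15% of all windows. The core letters bound by RBPJ, TGGGAA or TTCCCA, were likewise in 0 of the 8, against 25.6% of all windows.

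The labels of the samples were checked with lists of marker genes. The summed level of 4 endothelial markers (Pecam1, Cdh5, Kdr, Tie1), in counts per 1000000 (CPM), was 2362 to 6478 in CD31+ libraries at P0 and 4651 to 5724 at W4, and at most 130.9 in the Ly51+gp38- and TEC libraries. Pericyte markers summed to 30944 to 41609 CPM in Ly51+gp38- cells at P0 and 84888 to 108683 at W4, and cTEC markers to 10674 to 20022 and 19199 to 31940.4 in cTEC. The 60 bulk libraries of endothelium, mural cells and TEC held 5785352 to 15852166 counts. Single cells of 1 library numbered 283 to 792 in endothelium and 663 to 1478 in mural cells from E16.5 on, fewer at E12.5, and 39 to 1760 in the classes of the newborn series, and at most 14 cell barcodes were shared by a pair of libraries. In bulk samples fewer cells of a type and less RNA per cell cannot be told apart.

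Which cells hold which ligand was read first from the bulk levels, and a gene is said to have passed a test at an adjusted p under 0.05. Dll4 was high both in endothelium and in cTEC: CD31+ libraries held 90.1, 121 and 157.9 CPM at P0 and 77.2, 114 and 154.5 at W4 (lowest, median and highest of 6 here and below). In cTEC it lay at 95.6, 115.2 and 148.3 CPM at P0 and at 107.4, 147 and 238 at W4. The ranges of these 4 groups overlap, and all of them lie above the next group, mTEC, with at most 39.2 CPM. Per kilobase of exon the mean of Dll4 was 32.5 ± 7.64 RPKM (SD, n = 6) in CD31+ and 32.3 ± 5.89 in cTEC at P0. In Ly51+gp38- cells its levels were 0, 1.48 and 7.73 CPM at P0, and all 6 libraries lie under the CD31+ range. Against cTEC, the mTEC of the same age held less Dll4, with a log2 fold change of -2.48 ± 0.28 (SE), adjusted p = 4.35e-06 at P0 and -2.86 ± 0.32 (SE), adjusted p = 3.13e-05 at W4 by edgeR's quasi-likelihood test with Benjamini-Hochberg adjustment.

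Dll1, the second Delta-like ligand, was likewise highest by the mean in CD31+ cells and cTEC, but less clearly so among TEC. It was at 21.9, 37.1 and 66.7 CPM in CD31+ cells at P0 and at 40.9, 60.4 and 144.1 at W4, where the highest library stands apart from the next at 69.4 CPM. In cTEC it was at 17.7, 41.995 and 80.0 CPM at P0 and 15.2, 26.6 and 34.4 at W4. In mTEC it lay at 5.19, 10.2 and 15.6 CPM at P0 and 0, 6.06 and 7.14 at W4, in each case under all cTEC libraries of that age, and the difference at W4 did not pass (adjusted p = 0.0886). In mTEClo it lay at 0, 5.04 and 35.1 CPM, which overlaps cTEC. All 6 Ly51+gp38- libraries at P0 together held 5 counts of it. Jag2, a ligand of the Jagged kind, was also shared by cTEC and endothelium, with 54.6, 67.1 and 85.7 CPM in cTEC at P0 and 25.1, 40.8 and 68.1 in CD31+ cells. In Ly51+gp38- cells it was at 0 counts in all 6 libraries at W4, so that the mean of CD31+ cells at W4 was at least 879-fold higher (with a floor of 3 counts for the 6 libraries together). In mTEClo it lay at 24.4, 29.4 and 86.6 CPM and in mTEChi at 0, 1.35 and 4.77, and the ranges do not overlap.

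Jag1, the ligand best known from arteries and the signalling to smooth muscle, was distributed differently. It was highest in Ly51+gp38- cells, at 159, 301 and 359.7 CPM at P0 and 219, 280.3 and 644 at W4, and CD31+ cells, at 68.4, 91.7 and 219 and 59.3, 84.1 and 226, came next by the mean, with ranges that overlap that of mTEClo, whose median of 86.8 CPM lies above that of CD31+ cells at the same age, W4. The difference between the populations passed the test at both ages, with a log2 fold change of 1.22 ± 0.32 (SE), adjusted p = 0.0154 at P0 and 1.71 ± 0.36 (SE), adjusted p = 0.00316 at W4, although the ranges overlap. Among TEC it was highest in mTEClo (65.0 to 139.5 CPM) and mTEChi (49.6 to 87.8), whose ranges overlap.

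**Figure D1:**
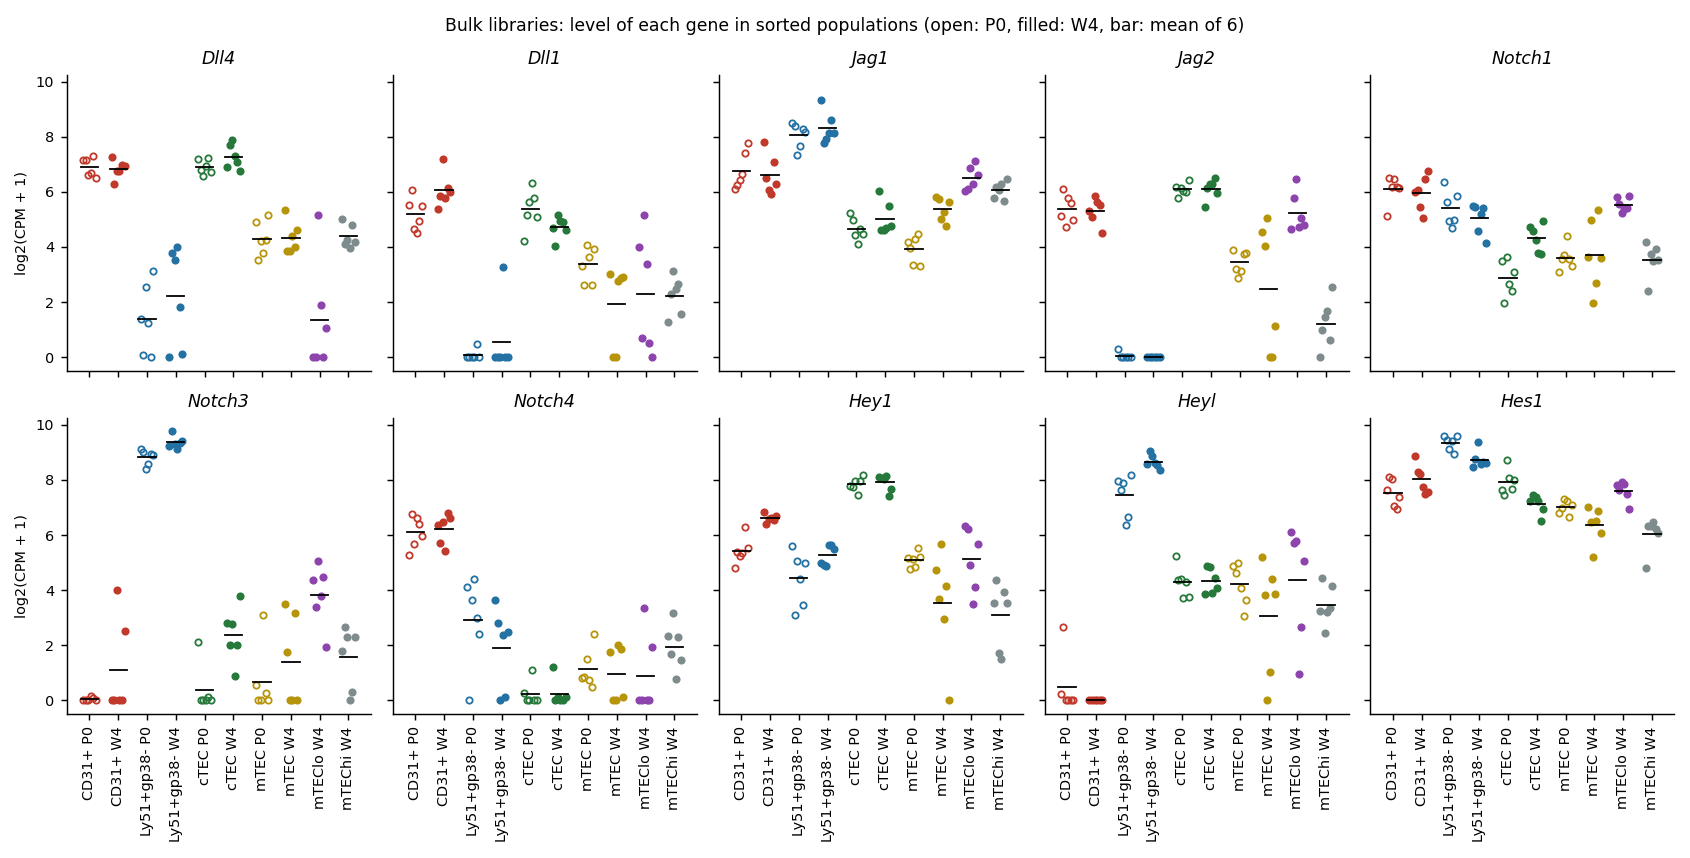
Levels of the 10 genes in the bulk libraries of 6 sorted populations, with log2(CPM + 1) on the vertical axis, 1 point per library (open at P0, filled at W4) and the mean of each group as a bar. Dll4 is high in both CD31+ cells and cTEC, Notch3 and Heyl in Ly51+gp38- cells, and Notch4 in CD31+ cells.

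The receptors differed in their distribution. Notch1, the receptor of T cell commitment and arterial fate, was found in both populations of the vessel wall and in TEC. It was at 33.7, 71.995 and 89.4 CPM in CD31+ cells at P0 and 24.5, 39.6 and 80.8 in Ly51+gp38- cells. The 2 populations were not separated by the test at P0 (log2 fold change Ly51+gp38- over CD31+ -0.66 ± 0.34 (SE), adjusted p = 0.215) or at W4 (-0.90 ± 0.34 (SE), adjusted p = 0.0735). In TEC it was highest in mTEClo, at 36.96, 43.6 and 56.3 CPM, above all mTEChi libraries at 4.24, 11.5 and 17.2 (log2 fold change mTEChi over mTEClo -1.81 ± 0.32 (SE), adjusted p = 0.00137). Notch3, the receptor of mural cells, lay at 340.2, 485 and 563 CPM in Ly51+gp38- cells at P0 and at 555, 639 and 874 at W4, far above the next group, gp38+CD26- cells, with 47.0, 105 and 119.2 at P0. CD31+ cells held 2 counts of Notch3 over all 6 libraries at P0. Notch4, a receptor known from endothelium, lay at 37.7, 72.2 and 106.6 CPM in CD31+ cells at P0 and at 42.1, 83.98 and 110.4 at W4, apart from every other group, of which the highest library, one of gp38+CD26- cells at P0, held 36.5 CPM.

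The 3 target genes parted from each other. Hey1, a repressor downstream of Notch in arteries, was highest in cTEC, at 172.4, 234 and 289 CPM at P0 and 171.6, 265 and 281 at W4, above every CD31+ library. The mTEC held less of it, with a log2 fold change against cTEC of -2.68 ± 0.17 (SE), adjusted p = 1.76e-08 at P0, and at W4 all 6 mTEC libraries, at 0 to 49.4 CPM, lie under those of cTEC. Heyl, the relative of Hey1 best known from smooth muscle, was highest by the mean in Ly51+gp38- cells, at 81.98, 217 and 292 CPM at P0 and 324, 385 and 530.2 at W4. The gp38+CD26- cells came next, at 25.7 to 138.1 CPM at P0 and 54.4 to 125.1 at W4, and overlap the P0 range of Ly51+gp38- cells. Heyl was at 0 counts in all 6 CD31+ libraries at W4, so that Ly51+gp38- cells were at least 10389-fold higher there. Hes1, a target used in most tissues, was found in every group, highest in Ly51+gp38- cells at P0 (487, 690.4 and 770.0 CPM) and lowest in mTEChi (27.2, 76.6 and 86.9 CPM).

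A count of members that differed between Ly51+gp38- and CD31+ cells is no result about the members. At both ages, 6 of the 10 (Dll4, Dll1, Jag2, Notch3, Notch4, Heyl) reached the minimum count of the test in all 6 libraries of only the population in which they were high, so they entered the test through it and their levels above are a description. Of the 4 that reached it in both populations, Jag1 and Hes1 differed at P0, where 19.5% of all genes that did so were called (20.3% of all genes tested), Hes1 with a log2 fold change of 1.79 ± 0.23 (SE), adjusted p = 5.81e-05, and Notch1 and Hey1 did not pass. At W4, where these shares were 25% and 23.2%, Jag1, Hey1 (-1.25 ± 0.21 (SE), adjusted p = 0.000577) and Hes1 (0.74 ± 0.24 (SE), adjusted p = 0.0416) differed and Notch1 did not pass. At W4 the call of Hes1 was lost without the filter on low counts (0.72 (adjusted p = 0.0606)), and that of Hey1 in a fit of all 60 libraries (-1.27 (adjusted p = 0.0747)).

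Between mTEC and cTEC at P0, all 8 members tested reached the minimum count in both populations. Of these, 5 differed (Dll4, Dll1, Jag2, Hey1 and Hes1), and all 5 were lower in mTEC. Of all genes that reached it in both, 40.0% were called and 22.5% were lower, and of all genes tested 43.5% and 16.3%. In the fit of 60 libraries Dll1 had -2.09 (adjusted p = 0.127). At W4, 4 members reached it in both (Dll4, Jag1, Notch1, Hes1), and Dll4 alone of these differed, being lower in mTEC, where of all genes that reached it in both 28.7% were called and 14.1% were lower, and of all genes tested 25.2% and 9.38%. From mTEClo to mTEChi it was reached in both by 5 (Jag1, Notch1, Hey1, Heyl, Hes1), of which Notch1 and Hes1 were lower in mTEChi (against 20.4% called and 10.9% lower of all genes that reached it in both, and 16.4% and 6.24% of all genes tested), Hes1 with a log2 fold change of -1.34 ± 0.26 (SE), adjusted p = 0.00256. Marker lists also differed here without overlap: from mTEClo to mTEChi, pericyte markers summed to 2472 to 4232 and 1672 to 2175 CPM, smooth muscle markers to 209.9 to 433 and 121 to 192.5, mTEC markers to 9968 to 30882 and 1839 to 2179, cTEC markers to 203 to 444 and 866 to 1206, and haematopoietic markers to 35093 to 44263 and 74089.8 to 86313. The haematopoietic list (Ptprc, Lyz2, Cd74) holds Cd74, an MHC class II presentation gene that TEC also express. Its sum in TEC is therefore no measure of blood cells. In mTEC and cTEC pericyte markers summed to 2172 to 3377 and 34.5 to 106 CPM at P0 and 1404 to 3217 and 135.6 to 676 at W4, where thymocyte markers were at 21.4 to 79.6 and 396 to 1811. Notch3, high in Ly51+gp38- cells, was at 0 to 7.55 CPM in mTEC at P0. The pericyte sum in TEC is therefore not taken as a measure of mural cells. Other lists also parted mTEC and cTEC at P0. Smooth muscle markers summed to 117 to 248 and 50.7 to 106 CPM, and fibroblast markers to 443 to 585 and 161.5 to 362. Arterial markers summed to 71.3 to 111 and 13.6 to 60.9, and capillary markers, lower in mTEC, to 11.5 to 47.7 and 80.6 to 129.6. Their part in these differences was not tested.

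In bulk, the tests of age called 1 or 2 members in each population. A member that did not pass is not thereby shown to be unchanged. In CD31+ cells Hey1 rose from 27.0, 40.2 and 78.3 CPM at P0 to 83.6, 96.1 and 113.4 at W4. The ranges do not overlap, and the log2 fold change was 1.22 ± 0.25 (SE), adjusted p = 0.00987. It was the single member called of 8 tested (against 5.09% of all genes), while Dll4, Jag1, Jag2 and Notch1 had log2 fold changes of 0.02 ± 0.20, -0.04 ± 0.37, 0.00 ± 0.32 and 0.01 ± 0.32 (SE). Dll1 lay higher at W4 with a log2 fold change of 0.996 ± 0.35 (SE), adjusted p = 0.138, which did not pass, and neither did Notch4 (0.20 ± 0.31, SE) and Hes1 (0.62 ± 0.26). Notch3 and Heyl were too low in CD31+ cells to be tested. Over the same ages the summed markers of veins and lymphatics in CD31+ cells were 291 to 653 CPM at P0 and 1479 to 1971 at W4, those of arteries 1114 to 1683 and 1363 to 2229, those of capillaries 1442 to 4198 and 650.0 to 1329, and those of erythroid cells 7.57 to 342 and 273 to 7015. Pericyte markers summed to 82.5 to 193 and 572 to 1784 CPM, smooth muscle markers to 0.411 to 16.8 and 30.1 to 111, and haematopoietic markers (Ptprc, Lyz2, Cd74) to 14.9 to 111 and 391.8 to 589.8. Their part in the change of Hey1 was not tested. Within the libraries whose labels hold TXCK the log2 fold change of Hey1 was 1.63 (adjusted p = 0.0934) and within those that hold DFCK 0.93 (adjusted p = 0.302), each with 3 libraries against 3, so the direction was shared and the call was not. In a fit of all 60 libraries it was 1.28 (adjusted p = 0.125).

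In Ly51+gp38- cells, Heyl rose from 81.98, 217 and 292 CPM to 324, 385 and 530.2 without overlap, a log2 fold change of 1.23 ± 0.28 (SE), adjusted p = 0.00866. Notch3 rose with it, with a log2 fold change of 0.66 ± 0.16 (SE), adjusted p = 0.0134, and its ranges, 340.2 to 563 and 555 to 874 CPM, overlap at their edge. They were 2 of 8 members tested, against 11.9% of all genes, and Hey1 and Jag1 lay higher without passing (0.79 ± 0.41 and 0.42 ± 0.27 on the log2 scale, SE). Hes1 had a log2 fold change of -0.47 ± 0.17 (SE), adjusted p = 0.103, and Dll4, Notch1 and Notch4 did not pass either. Dll1 and Jag2 were too low to be tested. In the same libraries pericyte markers summed to 30944 to 41609 CPM at P0 and 84888 to 108683 at W4, smooth muscle markers to 1352 to 2452 and 5456 to 7161, and fibroblast markers to 1966 to 8261 and 1193 to 4744. Thymocyte markers summed to 4.60 to 23.2 and 94.2 to 309 CPM, cTEC markers to 21.3 to 106 and 352 to 1955, mTEC markers to 0 to 10.6 and 29.4 to 186, and haematopoietic markers to 15.5 to 114 and 302 to 1888. The part of all these markers in the 2 results was not tested. For Heyl the log2 fold change was 0.88 (adjusted p = 0.0209) within TXCK and 1.62 (adjusted p = 0.152) within DFCK. For Notch3 it was 0.61 (adjusted p = 0.223) and 0.72 (adjusted p = 0.155). The fit of 60 libraries gave 1.29 (adjusted p = 0.36) for Heyl and 0.72 (adjusted p = 0.878) for Notch3.

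In cTEC, Dll4, Jag2 and Hey1 had log2 fold changes from P0 to W4 of 0.47 ± 0.20, 0.08 ± 0.17 and 0.13 ± 0.16 (SE), none of which passed. The same holds for Dll1 (-0.73 ± 0.32, SE), Jag1 (0.52 ± 0.30), Heyl (0.06 ± 0.31) and Notch3, which lay at 0 to 3.30 and 0.850 to 12.7 CPM, and Notch4 was too low to be tested. Hes1 fell from 172.98, 229 and 427 CPM to 89.4, 150.999 and 176, a log2 fold change of -0.77 ± 0.22 (SE), adjusted p = 0.0239. Notch1 rose from 2.88, 6.41 and 11.3 CPM to 12.3, 20.7 and 30.2, a log2 fold change of 1.61 ± 0.38 (SE), adjusted p = 0.00744, and its ranges do not overlap. These were 2 of 9 members tested, against 22.3% of all genes. Notch1 is also a gene of thymocytes, and 7 thymocyte markers (Cd3e, Cd3g, Cd8a, Cd4, Lck, Rag1, Themis) summed to 25.3 to 47.8 CPM in cTEC at P0 and 396 to 1811 at W4, with none of the 7 at 0 in either group. Over the 6 W4 libraries, from the lowest to the highest sum of these markers (396, 1115, 1204, 1443, 1709 and 1811 CPM), Notch1 was at 25.5, 12.7, 12.3, 30.2, 23.2 and 18.2 CPM. Other markers were also higher at W4: those of mTEC summed to 241.1 to 547 CPM at P0 and 1132 to 6531 at W4, those of endothelium to 0 to 0.969 and 8.86 to 76.4, those of pericytes to 34.5 to 106 and 135.6 to 676, those of fibroblasts to 161.5 to 362 and 436 to 2019, and haematopoietic markers to 20824 to 25283 and 33143 to 41709.7. The last list holds Cd74, which TEC also express, so its sum here is no measure of blood cells. Erythroid markers summed to 0 to 0.646 and 29.0 to 1273 CPM, smooth muscle markers to 50.7 to 106 and 140.5 to 249, capillary markers to 80.6 to 129.6 and 202 to 362, and venous and lymphatic markers to 0.161 to 3.09 and 3.20 to 18.6. Of the 2 capillary genes, Gpihbp1 was at 0 counts in all cTEC libraries at P0. The part of all these markers in the changes of Notch1 and Hes1 was not tested. Within TXCK the log2 fold change of Notch1 was 1.22 (adjusted p = 0.279) and within DFCK 2.02 (adjusted p = 0.0293). For Hes1 it was -1.08 (adjusted p = 0.109) and -0.50 (adjusted p = 0.133), and Hes1 also lost its call when replicate 3 of P0, 5 of W4 or 6 of W4 was left out, with -0.56 (adjusted p = 0.0528), -0.67 (adjusted p = 0.0507) and -0.72 (adjusted p = 0.0538). In the fit of 60 libraries the values were 1.64 (adjusted p = 0.00578) for Notch1 and -0.74 (adjusted p = 0.0549) for Hes1.

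In mTEC, Jag1 rose from 8.80, 16.0 and 21.4 CPM at P0 to 25.9, 42.97 and 55.6 at W4, a log2 fold change of 1.49 ± 0.32 (SE), adjusted p = 0.0125. The ranges do not overlap. It was the single member called of 8 tested, against 5.99% of all genes, and within TXCK and within DFCK the values were 1.48 (adjusted p = 0.0852) and 1.49 (adjusted p = 0.509). The mTEC markers summed to 2018 to 3927 CPM at P0 and 3699 to 9260.4 at W4, erythroid markers to 2.4998 to 23.7 and 512 to 4424, and arterial markers to 71.3 to 111 and 162 to 272, the last 2 without overlap. Their part in the rise of Jag1 was not tested. At W4 the mean of Jag1 in mTEC, 41.9 CPM, lay under those of both mTEClo (93.6) and mTEChi (67.6). A pool of both would lie between them, so the level of Jag1 in mTEC at W4 is uncertain. The reason was not tested. Of the others, Hes1 had -0.54 ± 0.27 (SE), Dll4, Dll1, Jag2, Notch1, Hey1 and Heyl did not pass, and Notch3 and Notch4 were too low to be tested. Whether an age change differed between populations was asked with an interaction term. Of the members that reached the minimum count in every library of the 4 groups, 0 of 4 (Jag1, Notch1, Hey1, Hes1) passed for CD31+ against Ly51+gp38- cells (edgeR called 2.79% of all such genes, and 2.34% of all genes tested) and 0 of 4 (Dll4, Jag1, Notch1, Hes1) for cTEC against mTEC (6.13% and 5.52%), by edgeR and by DESeq2. In each, 1 of the 4 had an unadjusted p under 0.05 by edgeR, as had 848 of 5733 and 1367 of 6832 of all such genes. The other members entered these tests through the groups in which they are high. Notch3 and Heyl, which DESeq2 called in the first, are such members, with 2 counts of Notch3 in all CD31+ libraries at P0 and 0 of Heyl at W4, so those calls are no result. The age changes above are therefore not shown to be particular to one population.

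**Figure D2:**
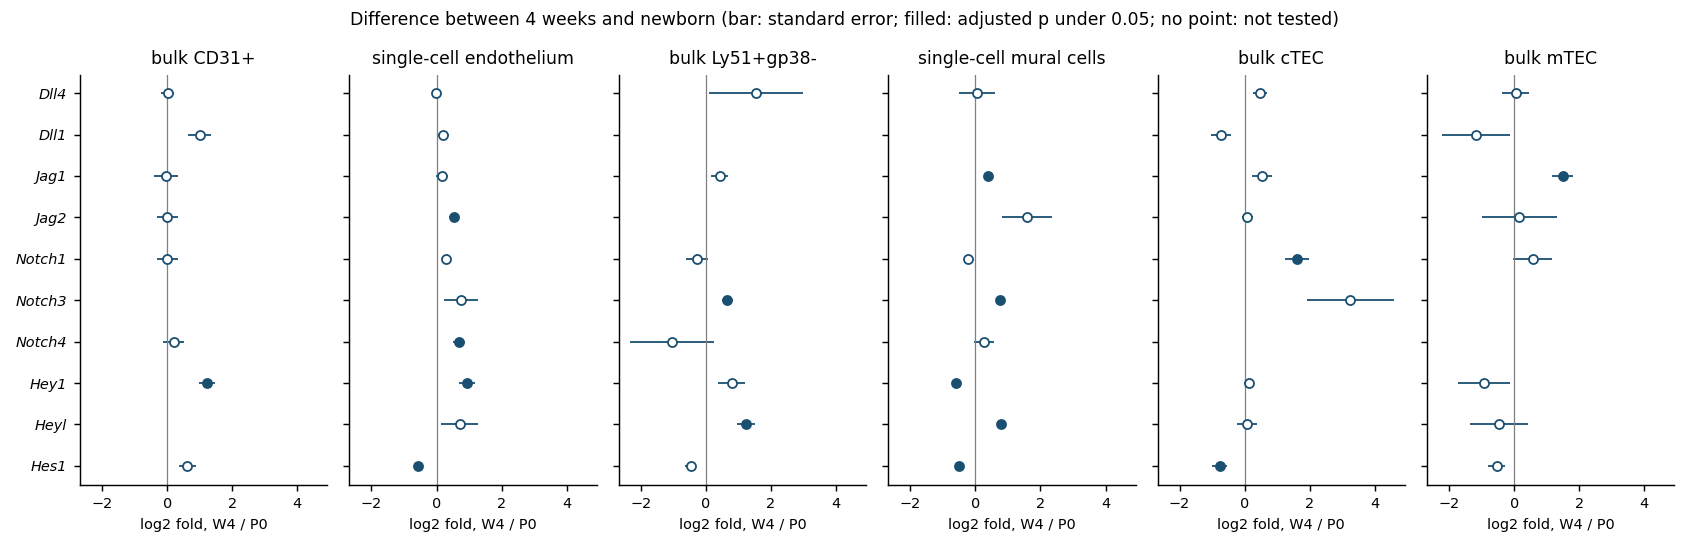
Log2 fold changes from P0 to W4 of the 10 genes in 4 bulk populations and in endothelium and mural cells of the age series, with the standard error as a bar and filled points for genes that passed the test. Notch3 and Heyl lie above 0 in mural cells of both data sets, and Hes1 lies below 0 in 5 of the 6 comparisons.

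In the single cells the authors' labels allowed the vessel wall to be divided: EnA (arterial), EnC (capillary) and EnVL (venous and lymphatic) endothelium, and Pc (pericytes) and VSM (vascular smooth muscle). UMIs were summed over the cells of a class in each library. In endothelium as a whole, 9 of 10 members differed over the 5 ages, where 60.8% of all genes did, and Heyl was the exception (adjusted p = 0.259). Between P0 and W4, a comparison that shares its libraries with the test over all ages, 4 of 10 differed, against 24.2% of all genes.

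Among the ligands, Dll4 in endothelium was at 41.98 CPM at E12.5, 86.9 at E13.5, 76.6 and 74.4 at E16.5, 101.5 and 104 at P0 and 104 and 110.2 at W4. The E12.5 library lies lowest, and the log2 fold change from P0 to W4 was -0.01 ± 0.11 (SE), adjusted p = 0.973. Jag2 was at 11.1 CPM at E12.5, 18.7 at E13.5, 28.4 and 30.3 at E16.5, 38.1 and 42.4 at P0 and 67.7 and 55.3 at W4, so that each later age from E16.5 lay above the one before, and the log2 fold change from P0 to W4 was 0.54 ± 0.15 (SE), adjusted p = 0.0283. Dll1 was at 15.6 CPM at E12.5, 8.06 at E13.5, 15.8 and 14.3 at E16.5, 38.1 and 31.7 at P0 and 45.01 and 39.6 at W4, with its 4 highest values in the P0 and W4 libraries. Within the labels, Dll4, Jag1 and Jag2 were each highest in EnA: at W4, EnA held 145.6 and 191.6 CPM of Dll4, EnC 102 and 100.6 and EnVL 86.2 and 88.0. For Jag2 the values at W4 were 226 and 186.8 in EnA, 39.9 and 37.4 in EnC and 28.1 and 24.1 in EnVL. Dll1 was highest in EnVL at W4, with 89.0 and 71.2 CPM there, 25.5 and 47.9 in EnA and 22.4 and 21.5 in EnC. Jag1, which marked EnA at every age, was at 184.9 and 298 CPM there at P0 and 247 and 189 at W4, and at no more than 57.7 in EnC and EnVL. In endothelium as a whole its log2 fold change from P0 to W4 was 0.16 ± 0.19 (SE), adjusted p = 0.569. The cells labelled EnA made up 10.2% and 10.7% of endothelium at P0 and 18.6% and 16.0% at W4, and at most 31 of them were in a library at P0. Within EnC alone the log2 fold change of Jag2 from P0 to W4 was -0.04 ± 0.20 (SE), adjusted p = 0.913, and within EnA it was 0.50 ± 0.22 (SE), adjusted p = 0.186.

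Dll4 itself changed with age in 1 of the 3 labels. In EnVL it was at 18.4 CPM at E12.5, 17.5 at E13.5, 22.3 and 22.5 at E16.5, 39.1 and 45.1 at P0 and 86.2 and 88.0 at W4. The W4 libraries stand clear of all younger ones, and the log2 fold change from P0 was 0.98 ± 0.22 (SE), adjusted p = 0.0095, where 15.0% of all genes were called (against 22.7% within EnC and 9.59% within EnA). In EnC it was -0.29 ± 0.13 (SE), adjusted p = 0.147 and in EnA -0.52 ± 0.23 (SE), adjusted p = 0.191. Whether the labels differ in this change was not tested.

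Of the receptors in endothelium, Notch1 was at 67.5 CPM at E12.5, 87.4 at E13.5, 84.2 and 80.2 at E16.5, 104 and 124.8 at P0 and 154 and 138.7 at W4. The W4 libraries are the highest, but the log2 fold change from P0 did not pass (0.29 ± 0.12 (SE), adjusted p = 0.129). Notch4 was at 31.7 CPM at E12.5, 45.5 at E13.5, 43.4 and 39.6 at E16.5, 40.9 and 60.7 at P0 and 80.7 and 92.1 at W4 and rose from P0 to W4 by a log2 fold change of 0.69 ± 0.19 (SE), adjusted p = 0.0305. It rose within EnC (0.72 ± 0.17 (SE), adjusted p = 0.0113) and within EnVL (1.60 ± 0.38 (SE), adjusted p = 0.0142), and in EnA it had -0.37 ± 0.27 (SE), adjusted p = 0.432. Notch3 in endothelium was at 7.49 and 27.7 CPM at P0 and 23.0 and 39.6 at W4, a log2 fold change of 0.75 ± 0.51 (SE), adjusted p = 0.318, while pericyte markers in the same summed cells were 145.8 to 314 and 259 to 815 CPM. Within EnA, Notch3 passed with a log2 fold change of 1.90 ± 0.49 (SE), adjusted p = 0.0371, from 7.25 and 36.0 CPM to 83.7 and 98.2, and the part of the pericyte markers in it was not tested. In all endothelium the value turned on the P0 libraries, with 0.08 (adjusted p = 0.922) without replicate 1 and 2.003 (adjusted p = 0.0376) without replicate 2. With a replicate block, in a fit of E16.5, P0 and W4 alone, it was 0.83 (adjusted p = 0.0366).

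Of the targets in endothelium, Hey1 and Hes1 moved in opposite directions from P0 to W4. Hey1 was at 26.8 CPM at E12.5, 102.96 at E13.5, 23.4 and 31.04 at E16.5, 30.6 and 36.7 at P0 and 84.7 and 50.8 at W4, and its log2 fold change from P0 to W4 was 0.94 ± 0.24 (SE), adjusted p = 0.023. Its E13.5 library, the highest of all, is also the one with most EnA cells (21.5% of endothelium), and EnA was the label with most Hey1 at every age, with 134.1 and 173.4 CPM at P0 and 277 and 194 at W4. The part of this makeup in the course of Hey1 was not tested. Within EnA the change was 0.51 ± 0.24 (SE), adjusted p = 0.219 and within EnC 0.86 ± 0.29 (SE), adjusted p = 0.0529, neither of which passed. Hes1 was at 121 CPM at E12.5, 164.6 at E13.5, 79.5 and 88.9 at E16.5, 208 and 171.5 at P0 and 135.95 and 130.7 at W4. It fell from P0 to W4, with a log2 fold change of -0.57 ± 0.11 (SE), adjusted p = 0.00652, and passed within EnC (-0.44 ± 0.12 (SE), adjusted p = 0.0245) and EnVL (-0.97 ± 0.25 (SE), adjusted p = 0.0201). In bulk CD31+ cells Hes1 lay the other way, higher at W4 without passing (0.62 ± 0.26 (SE), adjusted p = 0.228). Heyl stayed at 0.823 to 5.21 CPM over the 8 libraries. The calls of the pooled endothelium rest on few libraries. DESeq2 did not call Jag2 (0.55 (adjusted p = 0.13)). Without replicate 1 of W4 none of the 4 was called, with log2 fold changes of 0.43 (adjusted p = 0.144) for Jag2, 0.83 (adjusted p = 0.0745) for Notch4, 0.56 (adjusted p = 0.171) for Hey1 and -0.57 (adjusted p = 0.059) for Hes1. Without replicate 1 of P0 Hes1 alone remained, Jag2 having 0.44 (adjusted p = 0.13), Notch4 0.42 (adjusted p = 0.142) and Hey1 0.79 (adjusted p = 0.138). Without replicate 2 of P0 Hey1 had 1.09 (adjusted p = 0.0615), and without replicate 2 of W4 Notch4 had 0.57 (adjusted p = 0.16).

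**Figure D3:**
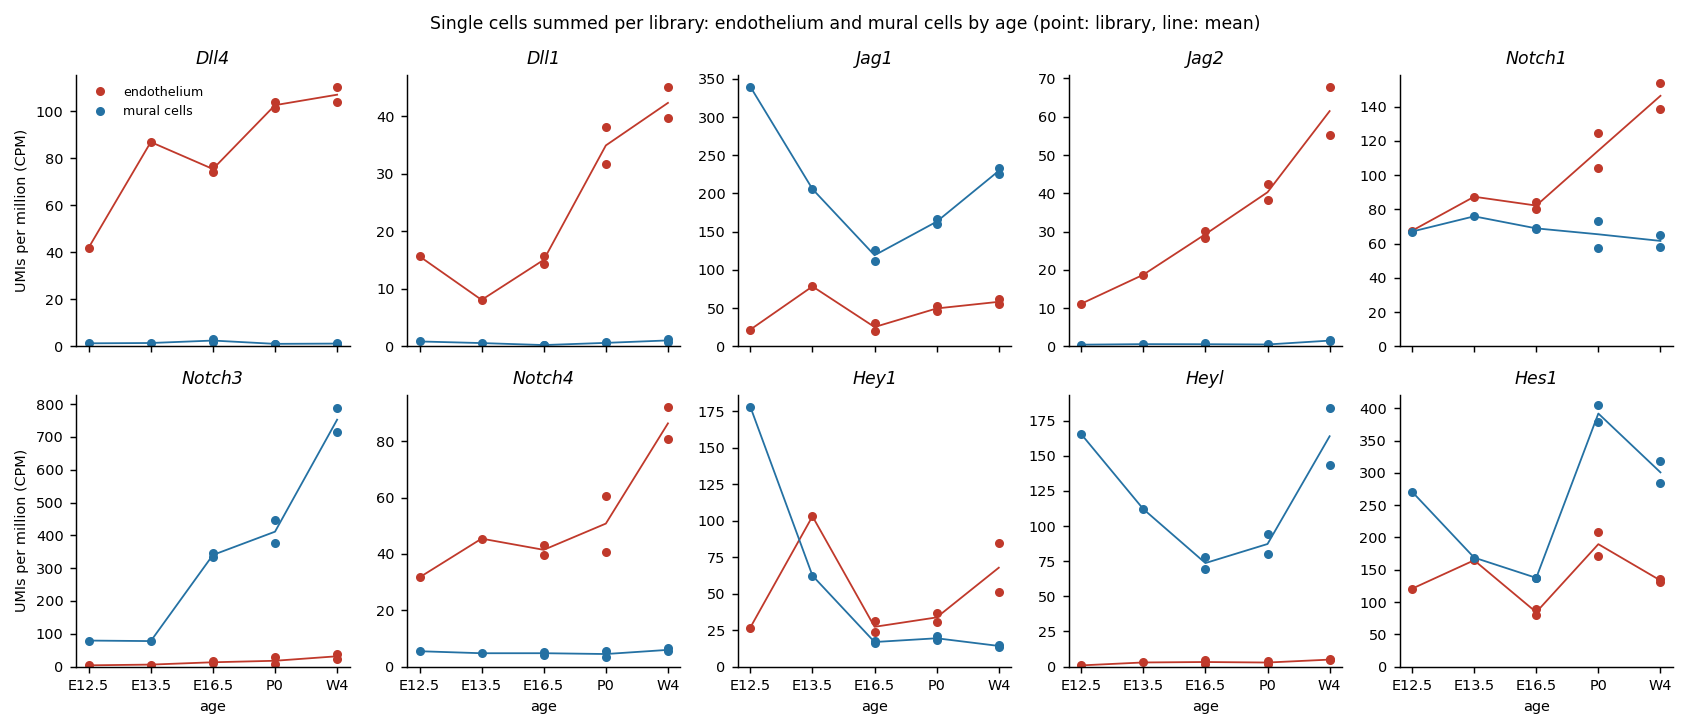
Levels of the 10 genes in UMIs summed over endothelium and over mural cells in each library of the age series, with CPM on the vertical axis, age on the horizontal axis, 1 point per library and the mean as a line. In mural cells Notch3 rises to its highest values at W4 while Jag1 and Heyl are lowest at E16.5, and Hes1 is highest at P0 in both classes.

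In mural cells, 5 of 9 members tested differed over the ages (66.6% of all genes did) and 5 between P0 and W4 (33.7%), and these were in both cases Jag1, Notch3, Hey1, Heyl and Hes1. Notch3 was at 79.2 CPM at E12.5, 77.6 at E13.5, 346 and 334 at E16.5, 377 and 446 at P0 and 789 and 716 at W4. The 2 early libraries are low, those of E16.5 and P0 intermediate and those of W4 highest, and the log2 fold change from P0 to W4 was 0.75 ± 0.10 (SE), adjusted p = 0.0014. It rose within Pc (0.69 ± 0.12 (SE), adjusted p = 0.00105) and within VSM (0.79 ± 0.16 (SE), adjusted p = 0.022). Pericyte markers in mural cells were 1292 CPM at E12.5, 4946 to 6367 at P0 and 12171 to 12602 at W4, and thus moved in the same direction.

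Jag1, by contrast, began high in mural cells, at 339.7 CPM at E12.5, 206 at E13.5, 126 and 112.1 at E16.5, 166 and 160.1 at P0 and 234 and 225 at W4. Its lowest libraries are those of E16.5, and the log2 fold change from P0 to W4 was 0.37 ± 0.09 (SE), adjusted p = 0.0141, with 0.72 ± 0.11 (SE), adjusted p = 0.000404 within Pc and 0.17 ± 0.11 (SE), adjusted p = 0.331 within VSM. Heyl ran through the same low point, at 165.4 CPM at E12.5, 112.1 at E13.5, 77.8 and 69.5 at E16.5, 94.4 and 80.1 at P0 and 184.2 and 143.6 at W4, and its log2 fold change from P0 to W4 was 0.79 ± 0.13 (SE), adjusted p = 0.00421. It passed within Pc (0.98 ± 0.13 (SE), adjusted p = 0.000148) and had 0.37 ± 0.18 (SE), adjusted p = 0.201 within VSM, where 30.5% and 17.6% of all genes were called. Cells labelled VSM made up 47.6% of mural cells at E12.5, 38.0% at E13.5 and 25.7% and 24.6% at E16.5. At P0 they were 50.7% and 41.8% and at W4 40.9% and 49.3%. The part of this makeup in the courses of the members in mural cells was not tested. Hey1 was at 178 CPM at E12.5, 62.3 at E13.5, 17.4 and 16.2 at E16.5, 18.1 and 20.6 at P0 and 13.4 and 14.8 at W4, so that nearly all of its fall lay before E16.5. Its further fall from P0 to W4, a log2 fold change of -0.58 ± 0.13 (SE), adjusted p = 0.0134, was found within VSM (-1.01 ± 0.24 (SE), adjusted p = 0.0346) and not within Pc (0.02 ± 0.23 (SE), adjusted p = 0.959), a difference between the labels that was not itself tested. DESeq2 did not call it in mural cells (-0.58 (adjusted p = 0.0918)), and in bulk Ly51+gp38- cells Hey1 lay the other way, higher at W4 without passing (0.79 ± 0.41 (SE), adjusted p = 0.279). Of the other members, Notch1 in mural cells had an adjusted p of 0.083 over the ages and lay between 57.6 and 75.9 CPM in the 8 libraries. Dll4, Dll1 and Jag2 were at no more than 2.96 CPM in any of them, and Notch4 at no more than 6.49. Without replicate 1 of W4, Jag1 had 0.36 (adjusted p = 0.0675) and Hey1 -0.49 (adjusted p = 0.0883), and without replicate 2 of W4 Jag1 had 0.39 (adjusted p = 0.0529).

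Hes1 had its highest and its lowest age in common between both classes, which were summed from the same libraries. From E12.5 to E13.5, each a single library, it lay lower in mural cells and higher in endothelium. In mural cells it was at 271 CPM at E12.5, 169 at E13.5, 136.9 and 138 at E16.5, 405 and 379 at P0 and 318 and 284 at W4. The P0 libraries are the highest and those of E16.5 the lowest, as in endothelium. From P0 to W4 the log2 fold change in mural cells was -0.50 ± 0.08 (SE), adjusted p = 0.00382, with -0.91 ± 0.14 (SE), adjusted p = 0.000615 within Pc and -0.27 ± 0.12 (SE), adjusted p = 0.168 within VSM. Fos, Jun, Egr1 and Ier2, immediate-early genes that are known to respond to tissue dissociation, were chosen after the levels of Hes1 had been seen. Their summed level in mural cells was 2712 CPM at E12.5, 3887 at E13.5, 9779 and 9599 at E16.5, 13015 and 13419.9 at P0 and 3958 and 4061 at W4. In endothelium it was 1407 at E12.5, 1640.2 at E13.5, 3824 and 4096 at E16.5, 8165 and 8311 at P0 and 5795 and 4618 at W4. In bulk it was 4668 to 9378 in cTEC at P0 and 347 to 2089 at W4, and 3629 to 8554 and 541 to 3141 in Ly51+gp38- cells. In CD31+ cells it was 3356 to 10462 and 935 to 4249, and in mTEC 2162 to 3823 and 409 to 2113. Hes1 in bulk had log2 fold changes from P0 to W4 of -0.77 in cTEC, -0.47 in Ly51+gp38- cells, 0.62 in CD31+ cells and -0.54 in mTEC. Of these only that in cTEC passed. The part of these genes in the course of Hes1 was not tested.

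**Figure D4:**
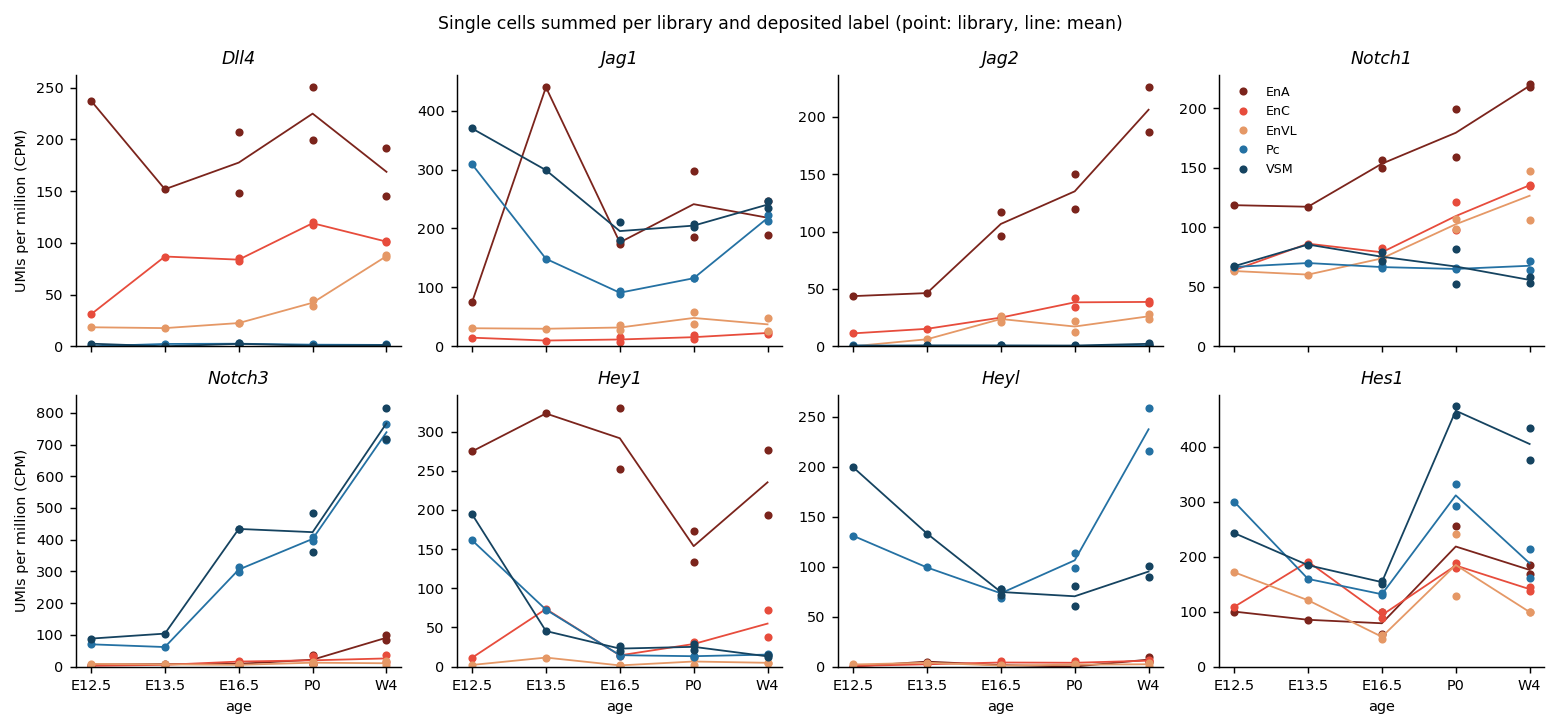
Levels of 8 of the genes in the 5 labels of the vessel wall, with CPM of UMIs on the vertical axis, age on the horizontal axis, 1 point per library and the mean as a line. EnA lies highest of the endothelial labels for Dll4, Jag1, Jag2, Notch1 and Hey1, and Notch3 reaches its highest values at W4 in both Pc and VSM.

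In the newborn series the targeted genes were looked at first. Tbx1 over all cells was at 0, 0 and 0.872 CPM in the 3 libraries labelled Tbx1+/-Crkl+/- and at 1.79, 0.441 and 0.605 in WT. Crkl was at 24.1, 23.6 and 26.9 CPM against 23.0, 25.1 and 18.4. Both ranges overlap, so these UMIs did not separate the genotypes. By edgeR's quasi-likelihood test with Benjamini-Hochberg adjustment, 0 members passed in endothelium (9 tested, 0.0126% of all genes called), mural cells (8, 0.112%), cortical TEC (labels PcTEC and McTEC, 9, 0.0%), intertypical TEC (ItTEC, 7, 0.0%) and mature medullary TEC (MmTEC, 4, 0.148%). At an unadjusted p under 0.05 there were 1, 2, 2, 1 and 1 members in these classes, and DESeq2 called 0 in each. Of all genes tested, 273 of 7957, 643 of 10671, 841 of 12390, 217 of 7190 and 604 of 6092 had such a p. Without the filter on low counts 2 members were called in mural cells and 1 in ItTEC, where 88 of 18725 and 35 of 17844 genes were.

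The members at an unadjusted p under 0.05 are given as values. Dll4 in cortical TEC was at 42.7, 29.9 and 34.9 CPM in the mutant libraries and at 49.999, 65.7 and 50.9 in WT. The 3 mutant libraries all lie below the 3 WT libraries, and the log2 fold change was -0.70 ± 0.21 (SE), adjusted p = 0.666. Over all cells of a library, the median UMIs per cell were 2551, 2391 and 2506 in the mutants and 2577, 3631 and 4686 in WT, which do not overlap either. Cells labelled PcTEC made up 84.3, 78.4 and 79.6% of the cortical TEC in the mutants and 80.4, 71.96 and 62.4% in WT, the others being McTEC. Within PcTEC, Dll4 was at 43.5, 31.8 and 32.4 CPM against 49.7, 65.99 and 51.5, and within McTEC at 37.7, 20.98 and 45.2 against 51.4, 64.7 and 48.8, so the genotypes did not overlap in either label. Notch3 in cortical TEC was at 10.1, 33.01 and 27.5 CPM against 14.2, 12.6 and 6.92 (1.16 ± 0.40 (SE), adjusted p = 0.666), and in ItTEC at 16.98, 91.1 and 80.2 against 12.6, 16.1 and 30.4 (1.71 ± 0.45 (SE), adjusted p = 0.69), while pericyte markers summed to 94.99 to 313 against 101.1 to 144.4 in cortical TEC and to 272 to 758 against 284 to 441 in ItTEC. In mural cells Jag2 was at 10.9, 15.6 and 16.2 CPM in the mutants and at 2.11, 5.07 and 6.73 in WT, without overlap (1.47 ± 0.38 (SE), adjusted p = 0.185), and cTEC markers in the same mural cells were at 333 to 604 against 214 to 319. Heyl in mural cells was at 17.2, 25.7 and 47.9 CPM against 42.9, 65.9 and 65.6, with overlapping ranges (-0.91 ± 0.28 (SE), adjusted p = 0.296), and smooth muscle markers were at 1692 to 2215 against 2383 to 3898. What part the depth, the makeup and these markers have in the differences was not tested. Jag1 in endothelium was at 33.999, 58.8 and 71.7 CPM against 114.8, 76.4 and 73.1 (-0.62 ± 0.28 (SE), adjusted p = 0.999), and Hes1 in MmTEC at 89.3, 144.4 and 133 against 93.8, 70.9 and 63.9 (0.71 ± 0.33 (SE), adjusted p = 0.492).

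The newborn WT cells also give levels of TEC classes at single-cell resolution. Dll4 was at 49.999, 65.7 and 50.9 CPM in cortical TEC, 12.6, 24.2 and 30.4 in ItTEC and 15.6, 6.44 and 12.2 in MmTEC. Every cortical library lies above every library of the other two. Jag2 was at 167.9, 193 and 132.2 in cortical TEC and 170.2, 202 and 131.1 in ItTEC, which overlap, and at 31.3, 19.3 and 12.2 in MmTEC. Hey1 was at 41.97, 68.3 and 83.9 CPM in cortical TEC, at 31.5, 41.9 and 51.1 in ItTEC and at 5.21, 4.29 and 5.43 in MmTEC. MmTEC held 46 to 126 cells per WT library, so that its lowest values rest on few UMIs.

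**Figure D5:**
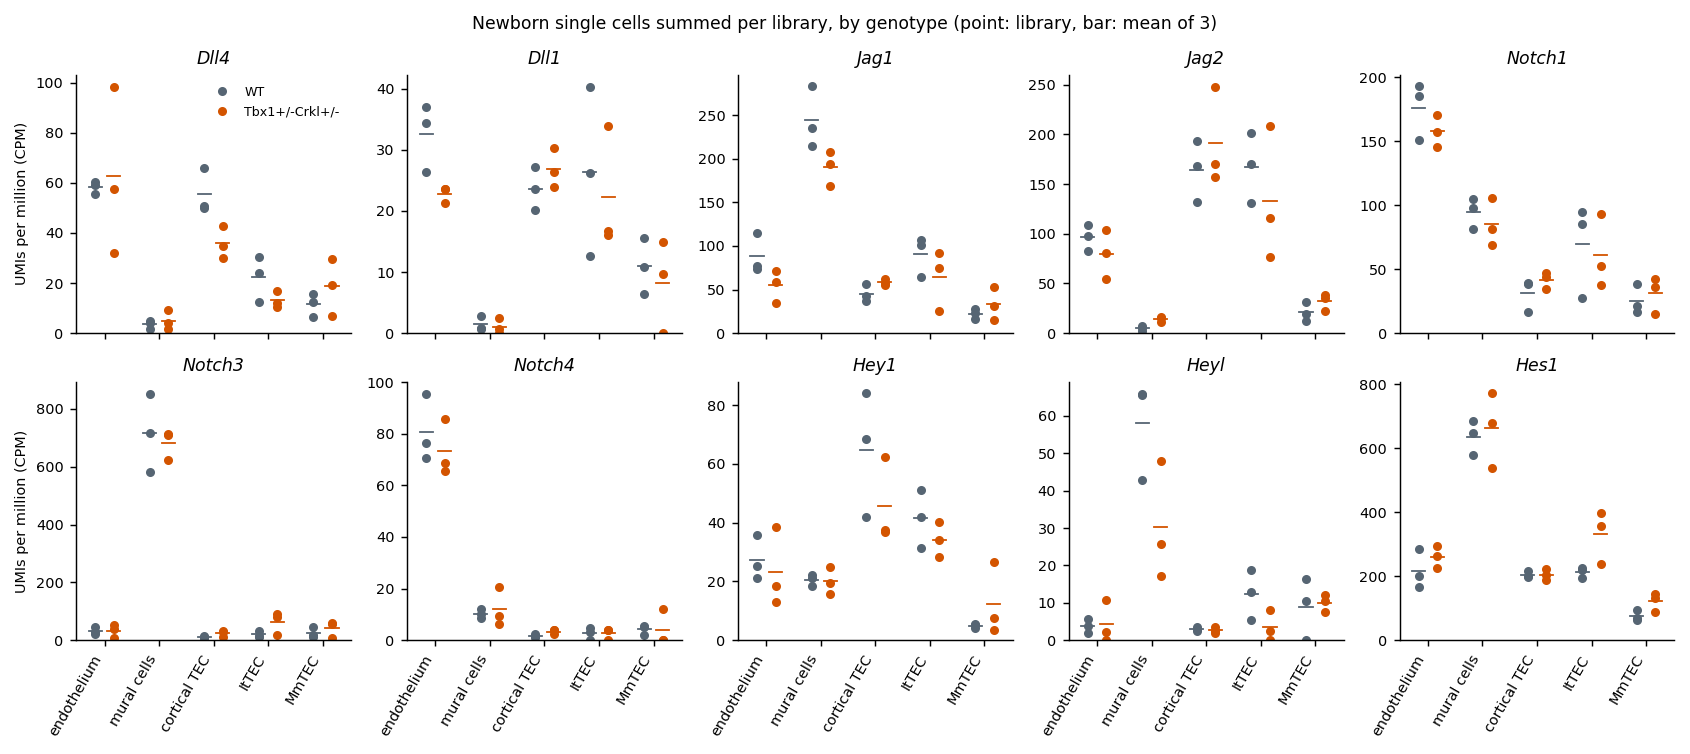
Levels of the 10 genes in the newborn series in CPM of UMIs, with 1 point per library and the mean of 3 as a bar, for mutant and WT libraries of each class. The points of the genotypes overlap for most genes, and Dll4 in cortical TEC and Jag2 in mural cells are among those that do not.

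The other genes of the pathway were taken from a list of 41, which holds fringe and other glycosyltransferases, proteases, the nuclear complex, ubiquitin ligases and further regulators and targets. In bulk, 1 of 19 list genes at the minimum count in every library of both ages changed with age in CD31+ cells (1 higher, 0 lower, against 7.13% of all such genes), 5 of 25 in Ly51+gp38- cells (2, 3, against 16.1%), 6 of 26 in cTEC (1, 5, against 24.3%) and 2 of 21 in mTEC (1, 1, against 10.4%). The gene in CD31+ cells was Poglut1, which adds O-glucose to Notch, with a log2 fold change of 1.45. In Ly51+gp38- cells Psenen and Snw1 were higher at W4 (0.99 and 0.50), and Dlk1, a noncanonical ligand of developing tissue, was lower (1093 to 1492 CPM at P0 and 21.9 to 54.1 at W4, a log2 fold change of -5.19), with the protease Adam10 (-0.53) and the gamma-secretase subunit Ncstn (-0.43). In cTEC the fringe Mfng was at 0 counts in all 6 libraries at P0 and at 3.38 to 10.6 CPM at W4, where the thymocyte markers above were also higher, and Pofut1 rose (0.96). Dtx3 (-0.80), Hes6 (-0.78) and Adam17 (-0.66) were the 3 that fell most there. In mTEC, Psenen rose (1.0) and Hes6 fell (-1.36).

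Between populations, list genes that lie near 0 in one of them entered the test through the other, so counts are given over those that reached its minimum in all 6 libraries of both. From CD31+ to Ly51+gp38- cells, 4 of 19 such genes differed at P0 (0 higher, 4 lower in the latter, against 19.5% of all genes that reached it) and 7 of 19 at W4 (2, 5, against 25%). The genes named from here on lead the whole list in each direction, and those given by their levels in CPM lie outside the counts. Higher by most at P0 were Dlk1 (1093 to 1492 CPM in Ly51+gp38- and 0 to 6.95 in CD31+ cells), Dtx4 (21.3 to 61.6 and 0 to 6.36) and Dtx3, a ubiquitin ligase of the Deltex family like Dtx4 (221 to 374 and 0.0821 to 64.0). Those lower were led by Mfng (0 to 2.64 CPM in Ly51+gp38- and 157 to 286 in CD31+ cells), the fringe Lfng (log2 fold change -2.21) and Psen2 (-1.78), a presenilin. At W4 the repressor Hey2 (28.0 to 66.1 CPM, and 0 counts in all 6 CD31+ libraries), Dlk1 (21.9 to 54.1 and 0 to 5.604) and Notch2, the fourth receptor (21.1 to 48.7 and 0.720 to 7.57), led those higher. Mfng (0 to 4.36 and 137.4 to 202), Adam10 (-2.21) and Numb (-1.996), known as an inhibitor of Notch, led those lower.

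From cTEC to mTEC, 12 of the 24 list genes that reached the minimum in both differed at P0 (5 higher, 7 lower in mTEC, against 40.0% of all genes that reached it) and 8 of 20 at W4 (7, 1, against 28.7%). Of the whole list at P0, Mfng (22.5 to 54.9 CPM in mTEC), the noncanonical ligand Dner (4.06 to 33.8) and Dll3 (28.1 to 51.9) led those higher, with 0 counts of Mfng and Dner in all 6 cTEC libraries and at most 0.193 CPM of Dll3, so that these 3 lie outside the counts. The coactivator Maml2 (-2.68), Dtx4 (-2.37) and Dlk2 (-2.02) led those lower. At W4, Neurl1a (2.94 to 27.7 CPM in mTEC and 0 to 0.248 in cTEC), Dlk1 (3.28 to 25.9 and 0 to 1.98) and Mfng (2.58) were higher by most, and Hes6 (-0.58) was the 1 lower. Outside the counts, as are Neurl1a and Dlk1, Maml2 lay at 0 to 52.1 CPM in mTEC and 106 to 165.04 in cTEC. From mTEClo to mTEChi, 7 of 23 differed (2 higher, 5 lower in mTEChi, against 20.4%). The 2 higher were Rbpj (0.97) and Poglut1 (0.83), and outside the count Dtx1 lay at 1.45 to 16.2 CPM in mTEChi and at 0 counts in all 6 mTEClo libraries. Hes6 (-1.61), Maml2 (-1.54) and Dll3 (-1.48) led those lower. In the interactions of age with the population, 0 of 17 list genes at the minimum in every library passed for CD31+ and Ly51+gp38- cells and 0 of 17 for cTEC and mTEC by edgeR (3 and 3 at an unadjusted p under 0.05), and 0 and 1 (Poglut1) by DESeq2. Of all genes at that minimum edgeR called 2.79% and 6.13%, and 848 of 5733 and 1367 of 6832 had an unadjusted p under 0.05. Of all genes tested DESeq2 called 820 of 13621 and 1476 of 17284. Outside these counts Numbl lay at 0 to 2.67 CPM at P0 and 0 counts at W4 in CD31+ cells and at 3.36 to 12.7 and 0 to 13.3 CPM in Ly51+gp38- cells, and Mfng was at 0 counts in cTEC at P0 (above).

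In the single cells, 9 of 35 list genes differed from P0 to W4 in endothelium (4 higher, 5 lower, against 24.2% of all genes) and 13 of 38 in mural cells (8, 5, against 33.7%). Poglut1 led in endothelium (1.11), followed by Psen2 (0.85) and Lfng (0.70), and Lfng (1.36), the gamma-secretase subunit Aph1c (1.26) and Dtx4 (0.94) led in mural cells. Dlk1 was at 276 and 387 CPM at P0 and 2.17 and 2.09 at W4 in endothelium, and at 898 and 1255 and 48.8 and 81.2 in mural cells. Dtx1 fell too, from 12.3 and 9.01 CPM to 0.621 and 0 in endothelium and from 1.62 and 1.39 to 0.446 and 0 in mural cells, where the W4 values are 2 and 0 UMIs in each class. The next were the coactivator Maml3 in endothelium (-0.96) and Hes6 in mural cells (-0.68). In the newborn series 0 list genes passed in any of the 5 classes.

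The genes most like each member over the 14 means of population and age in bulk were named by Pearson's r of log2(CPM + 1), as a description across means that share the libraries of a group. The mean of gp38+CD26+ cells at W4 includes a library of 25702 counts, where every other bulk library held at least 5785352, and that of Dll4 there is 6.48 CPM with it and 0 without it. For Dll4 they were Gpd2 (0.93), Tbc1d30 (0.92), Gm14207 (0.91), the last of which overlaps the exons of Dll4 by 214 bases on the other strand. As the use of strand in the bulk counts is not given in the sources used here, reads of the 2 genes cannot be told apart there. Dll1, Notch1 and Notch3 have such overlaps with other genes too, of 867, 1068 and 488 bases. For Jag2 the genes were Wscd1 (0.98), Adamts18 (0.94), Actg1 (0.93), for Notch3 Gm15179 (0.96), Adra2a (0.95), Adap2os (0.95), for Notch4 A330043C09Rik (0.98), Arap3 (0.96), Gm9917 (0.95), for Hey1 Atpaf1 (0.96), Metap2 (0.93), Hmg20b (0.92) and for Heyl Gprc5c (0.93), Nckap5 (0.91), Arvcf (0.91). For Dll1 they were Slc39a10 (0.95), Rassf9 (0.94), Prkd2 (0.94), for Jag1 Tprgl (0.87), Samd13 (0.85), Gm10687 (0.85), for Notch1 Dgkz (0.92), Ypel2 (0.90), Gnai2 (0.89) and for Hes1 Ppp2r3a (0.95), Plekhg2 (0.93), Oaz2 (0.92). Without the library of few counts, an alternative chosen after the data were seen, 22 of these 30 genes were again among the 3 most like. All 3 were for Dll1, Notch3 and Notch4, and for Jag1 1 was. Among the new ones were Rgcc for Dll4 (0.91), C2cd2 for Jag1 (0.85), 4930556M19Rik for Jag2 (0.94), Ifi203-ps for Notch1 (0.89), Pelo for Hey1 (0.94), Rnf150 for Heyl (0.90) and Prkacb for Hes1 (0.90).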

How the data were processed

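The single-cell tables hold whole UMI counts per gene and cell, which the authors made with Cell Ranger 3.1.0 and deposited with a label for each cell after their filters on genes, mitochondrial UMIs, doublets and contaminating clusters. The bulk table holds whole read counts per gene as deposited, and the submitters' processing notes name STAR 2.5.3a, HTSeq and mm10. Entries of no gene held 7.81 to 29.4% of the bulk reads and were left out. CPM are counts per 1000000 counts of genes, and RPKM are CPM per kilobase of exon. Levels of a label need 5 cells in a library and tests need 20.

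Tests used edgeR 4.0.16 in R 4.3.3 (filterByExpr, TMM, quasi-likelihood F test, Benjamini-Hochberg adjustment over all genes tested, threshold 0.05), on the groups compared alone in bulk and on all ages together in the age series, where the spread of the unreplicated E12.5 and E13.5 is taken from the other ages. DESeq2 1.42.0, no filter, the label codes TXCK and DFCK, one fit of 60 libraries, single labels, left-out libraries and a replicate block (in the age series without E12.5 and E13.5) were the alternatives. The fits were checked on simulated counts. Likeness was also computed without 1 library of few counts. Levels were computed in Python 3.11.15. The members, the pathway list of 41 genes and the markers were chosen with earlier results of these data known. All 10 members are named, with the 3 list genes of largest log2 fold change per direction among those called (levels in place of folds where a group lies at or near 0) and the 3 most like genes of each member with at least 1 CPM in a group mean. One of the most like genes in the alternative without that library is not reported here.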

Additional observations from a re-analysis of the deposited data

Results flagged for a closer look

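In 69 groups of 6 bulk libraries with a median of at least 10 CPM of a member, 8 libraries stood apart from the other 5 by Dixon's criterion at the 95% level, where chance alone gives about 1 in 20. Dll1 in CD31+ cells at W4 was at 144.1 CPM in replicate 3, the nearest other library being at 69.4. Notch1 was at 20.3 CPM in mTEC replicate 4 at P0 (nearest 12.1) and at 33.7 in CD31+ replicate 1 at P0 (nearest 70.3). Hey1 was at 78.3 CPM in CD31+ replicate 5 at P0 (nearest 44.8), which is the group from which Hey1 rose. Heyl was at 36.9 CPM in cTEC replicate 1 at P0 (nearest 19.9). Hes1 was at 427 CPM in cTEC replicate 3 at P0 (nearest 265), at 659 in Ly51+gp38- replicate 3 at W4 (nearest 428) and at 27.2 in mTEChi replicate 1 at W4 (nearest 66.3).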

How the results depend on the processing

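Members called from P0 to W4 were 1 in CD31+ cells (0 in TXCK alone, 0 in DFCK alone, 2 in the fit of 60 libraries), 2 in Ly51+gp38- cells (1, 0 and 1), 2 in cTEC (0 in TXCK, 1 in the fit of 60, and 1 to 4 with a library left out, the highest without P0 replicate 1) and 1 in mTEC (0 in TXCK and 0 in DFCK). The fit of 60 did not call Hey1 in CD31+ cells, or Heyl and Notch3 in Ly51+gp38- cells. The members it called in these populations are thus others than those of the main test. That fit also tests members too low for the main test, which enter it through other populations. These are Notch3 and Heyl in CD31+ cells and Dll1 and Jag2 in Ly51+gp38- cells, and a call of such a member is no result. DESeq2 called 5 members from mTEClo to mTEChi and 2 in the interaction of age with CD31+ and Ly51+gp38-, Notch3 and Heyl, which lie at or near 0 in CD31+ cells and entered that test through the other population. In endothelium of the age series 4 were called from P0 to W4, 3 by DESeq2, 1 with EnA only, 2 with EnC only and 0 to 4 with a library left out, and in mural cells 5, 4 by DESeq2, 2 with VSM only and 3 to 6 with a library left out. Without the filter 2 members were called in newborn mural cells and 1 in ItTEC, where 88 of 18725 and 35 of 17844 of all genes were. Directions turned for Dll4 in endothelium from P0 to W4 (-0.01 in the main test, 0.98 with EnVL only, 0.00473 by DESeq2, and -0.0734 to 0.0726 with a library left out), Notch4 with EnA only (-0.37), Jag2 with EnC only (-0.038), Notch3 with EnVL only (-0.37) and Hey1 in mural cells with Pc only (0.0196). The cause was not tested.

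Same-numbered libraries did not deviate together (correlations from -0.48 to 0.12 in the newborn series and from -0.10 to 0.15 in the age series). This cannot show whether the numbers mark a shared day or litter. In the age series the 2 libraries of an age deviate from their mean by opposite amounts, so replicates 1 and 2 give the same correlations. With a replicate block, in a fit of E16.5, P0 and W4 alone, the members called were 8 over these ages and 5 from P0 to W4 in endothelium, and 6 and 5 in mural cells. The block and the ages left out change together there, so these counts are not like those of the main test. In the newborn classes 0 members were called with a block.

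Calls over all genes moved by more than 1.5 times in CD31+ cells (577 in the main test, 1121 by DESeq2, 1995 in the fit of 60, 59 in TXCK, 88 in DFCK), Ly51+gp38- cells (1421, 762 in TXCK, 301 in DFCK, 2393 in the fit of 60), cTEC (2902, 1582 in TXCK, 933 in DFCK) and mTEC (952, 1798 by DESeq2, 3 in DFCK, 630 without P0 replicate 3, 1461 without W4 replicate 3). The fit of 60 gave 4366 against 2469 for Ly51+gp38- over CD31+ at P0, 5178 against 2663 at W4 and 6310 against 3564 for mTEC over cTEC at W4. Without the filter 3809 against 2537 passed for mTEChi over mTEClo. DESeq2 gave 820 against 319 and 1476 against 954 in the interactions, 1898 against 2963 in endothelium and 2462 against 4659 in mural cells from P0 to W4, where leaving out W4 replicate 1 gave 1497 and 2407, P0 replicate 1 1882 in endothelium and W4 replicate 2 2942 in mural cells. In the newborn series the calls were 1, 12, 0, 0 and 9 in endothelium, mural cells, cortical TEC, ItTEC and MmTEC, and without the filter 16, 88, 6, 35 and 252. With a library left out they were 0 to 8, 2 to 15, 0 to 0, 0 to 2 and 0 to 57, where MmTEC had 0 without any 1 of the mutants and 57 without WT replicate 1, mural cells 6 without mutant replicate 2, 3 without WT replicate 2 and 2 without WT replicate 3, and endothelium 8 without mutant replicate 3. In MmTEC DESeq2 gave 20 and the replicate block 18. The share of calls that were higher moved from 62.6 to 47.7% in CD31+ cells, 55.1 to 77.3% in cTEC and 62.5 to 80.9% for mTEC over cTEC at P0 in the fit of 60 (73.98% without the filter), from 62.002 to 74.7% for mTEChi over mTEClo, and from 78.4 to 65.99% in the second interaction by DESeq2. In the newborn classes several members lie at a few UMIs per library, which limits the precision of their values.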
